A study of Mus musculus with 12 samples.

Results

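Foxp3 and 5 genes known from regulatory T cells (Ikzf2, Ikzf4, Lrrc32, Nrp1 and Tgfb1) were followed by RNA-seq through CD8 T cells that carried a Batf3 or an empty retroviral vector. The 6 genes were taken by name from a table of 55335 genes, and all 6 were among the 15702 genes with enough counts to be tested. The question was whether Foxp3 changed together with these genes or apart from them.

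The cells came from the spleen of C57BL/6 mice with the OT-I transgene, which gives T cells a receptor for an ovalbumin peptide. After transduction with the empty (control) or the Batf3 vector, carrier cells were sorted and cultured for 6 h, either with 100 ng/ml IL-15 (non-stimulated) or on plate-bound antibody to CD3e with antibody to CD28, each at 1 µg/ml (stimulated). The 4 groups had 3 libraries each, and the replicates are labelled as technical, so SDs, SEs and p-values below measure technical spread and not that between mice or transductions. The labels name IL-15 for the non-stimulated cultures only, so the cytokine may differ between the cultures along with the antibodies.

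Regulatory T cells are mostly CD4 cells that restrain other T cells, and FOXP3 is the transcription factor that defines them. The Ikaros family factors Helios (Ikzf2) and Eos (Ikzf4) act with FOXP3 in these cells, and Helios is also found in other T cells, including some CD8 cells. GARP (Lrrc32) holds latent TGF-beta1 (the product of Tgfb1) on the cell surface, neuropilin-1 (Nrp1) is a semaphorin and VEGF receptor that marks many thymus-derived regulatory T cells, and TGF-beta signalling with T cell receptor signalling can switch Foxp3 on in other T cells. BATF3 is a basic leucine zipper factor of the AP-1 family, which binds DNA as a dimer with JUN proteins.

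Batf3 RNA followed the labels. It was at 6.77 ± 0.833 CPM in control and 470.4 ± 3.68 in Batf3 non-stimulated cells (SD, n = 3 libraries). In stimulated cells it was at 18.4 ± 0.735 CPM in control and 427.4 ± 11.9 in Batf3 cells. CPM are counts of a gene relative to the size of its library times a normalization factor. Total counts lay between 14211564 and 14468231 per library. With the normalization factors, a count of 3 stood for 0.191 to 0.229 CPM in a library. Among markers of the labelled cell type, the summed CPM of 8 CD3, CD8 and other T cell surface genes lay between 2402 and 2851 in the 12 libraries.

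Foxp3 (ENSMUSG00000039521) lies on the plus strand of the X chromosome, from 7573644 to 7595245 (GRCm38), with 18 merged exons of 4577 bases. The 2 windows of 250 bases that come before its annotated start sites in RefSeq (GRCm38.p6) are printed here because Foxp3 had the largest change of the 6 genes with the vector and the vector encodes a DNA-binding factor. Both are written 5′ to 3′ on the plus strand, with capitals for matches to the motifs searched.
Foxp3, chrX:7579426-7579675: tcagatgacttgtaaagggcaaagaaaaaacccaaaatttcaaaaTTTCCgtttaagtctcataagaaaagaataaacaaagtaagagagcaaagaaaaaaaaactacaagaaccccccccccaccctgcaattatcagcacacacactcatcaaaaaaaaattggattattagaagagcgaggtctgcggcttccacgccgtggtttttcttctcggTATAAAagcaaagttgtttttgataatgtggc
Foxp3, chrX:7580233-7580482: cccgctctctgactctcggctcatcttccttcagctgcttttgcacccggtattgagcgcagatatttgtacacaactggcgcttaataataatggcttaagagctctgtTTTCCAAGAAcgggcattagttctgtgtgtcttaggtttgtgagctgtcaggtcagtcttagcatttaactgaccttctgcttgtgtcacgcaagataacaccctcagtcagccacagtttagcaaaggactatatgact
In the upstream window the capitals are TTTCC, the reverse complement of the NFAT core GGAAA, 205 bases before the start site, and TATAAA 32 bases before it. In the downstream window they are the NFAT core letters on the minus strand at 140 bases before the start, overlapping TTCCAAGAA, which fits the STAT letters TTCNNNGAA. Neither window held, on either strand, the AP-1 letters TGANTCA, the CRE letters TGACGTCA, the RUNX letters TGTGGT or the composite AP-1 and IRF element known as AICE in its short or long spacing. Of 32851 RefSeq windows of the same length, 55.6% held GGAAA, 12.4% TATAAA, 7.02% the STAT letters, 6.75% the AP-1 letters, 1.55% the CRE letters, 14% the RUNX letters and 0.0974% or 0.1% the AICE in long or short spacing. The Foxp3 windows were poorer in G and C (37.6% and 46.0%) than the median window (52.4%). Windows were also matched for Nrp1, with GGAAA as its single match, 172 bases before the start, and for Tgfb1, with no match, so 3 of the 6 genes were covered. A match is a description of letters and not of a bound site.

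Foxp3 was close to the detection floor in control cells and was counted in every Batf3 library. In non-stimulated cells the 3 control libraries held 7, 6 and 15 Foxp3 counts (0.465, 0.398 and 0.994 CPM), and the 3 Batf3 libraries held 191, 184 and 178 (12.2, 11.8 and 11.4 CPM). All Batf3 libraries lay far above all control libraries, and the Batf3 libraries were close to each other. The change was 4.23 ± 0.32 on the log2 scale (SE), 18.8-fold, with an adjusted p of 3.56e-24 (edgeR's quasi-likelihood test, Benjamini-Hochberg adjustment, used for every adjusted p below). In stimulated cells the control libraries were at 1.37, 1.37 and 0.609 CPM (18, 18 and 8 counts) and the Batf3 libraries at 5.80, 4.30 and 6.93 CPM (78, 58 and 94 counts). The groups again did not overlap, but the Batf3 libraries were lower and more spread than without stimulation. The log2 change was 2.34 ± 0.27, 5.05-fold, with an adjusted p of 2.97e-12.

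The vector effect on Foxp3 was smaller in stimulated cells, by -1.90 ± 0.42 on the log2 scale (interaction, adjusted p = 0.000282). Within Batf3 cells Foxp3 fell by 1.05 ± 0.15 with stimulation (adjusted p = 2.49e-09). Within control cells it rose by 0.84 ± 0.39 (adjusted p = 0.0391), but the libraries of the 2 cultures overlapped. That last call was lost without control non-stimulated replicate 1 (0.67) or 2 (0.60), and without control stimulated replicate 1 or 2 (0.67 each), while without control non-stimulated replicate 3 the change was 1.35. The filter on low counts asked for about 0.700 CPM in at least 3 of the 12 libraries, whatever their group. Foxp3 reached that level in all Batf3 libraries, in 1 of 3 control non-stimulated and in 2 of 3 control stimulated libraries. The other 5 genes were above that level in every library. In bulk RNA, more cells with Foxp3 and more Foxp3 RNA per cell cannot be told apart.

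Foxp3 shares exons with other genes, and the sources used here do not say whether the counting used strand. The non-coding RNA Flicr, on the same strand, overlaps 853 bases (18.6%) of its exons. On the other strand Ccdc22 overlaps 590 bases (12.9%), Gm36995 373 (8.15%) and Ppp1r3f 266 (5.81%). Flicr had 12, 5 and 9 counts in control and 19, 21 and 20 in Batf3 non-stimulated libraries, and 2, 3 and 5 in control and 10, 11 and 8 in Batf3 stimulated libraries. It rose with the vector by 1.14 ± 0.39 (adjusted p = 0.0103) and 1.47 ± 0.57 (adjusted p = 0.0293), to a mean of 1.28 ± 0.0673 CPM at most. The Flicr calls were lost without control non-stimulated replicate 2 (0.86), and in stimulated cells without control replicate 1 (1.20) or 2 (1.39) or Batf3 replicate 1 (1.43) or 2 (1.35). With the Flicr counts added to those of Foxp3, the Foxp3 changes were 3.44 and 2.22 in non-stimulated and stimulated cells and both stayed called, whereas the change with stimulation in control cells was 0.20 (adjusted p = 0.545). Ppp1r3f rose by 0.76 ± 0.32 in non-stimulated cells (adjusted p = 0.0455), a call lost without any 1 of the 6 libraries compared (adjusted p from 0.0632 to 0.133), and was at -0.74 ± 0.81 in stimulated cells (adjusted p = 0.515). Usp27x, the next gene upstream, did not pass in either culture (0.37 ± 0.28 and -0.20 ± 0.21), and Gm36995, Ccdc22 and Cacna1f had too few counts to be tested.

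**Figure D1:**
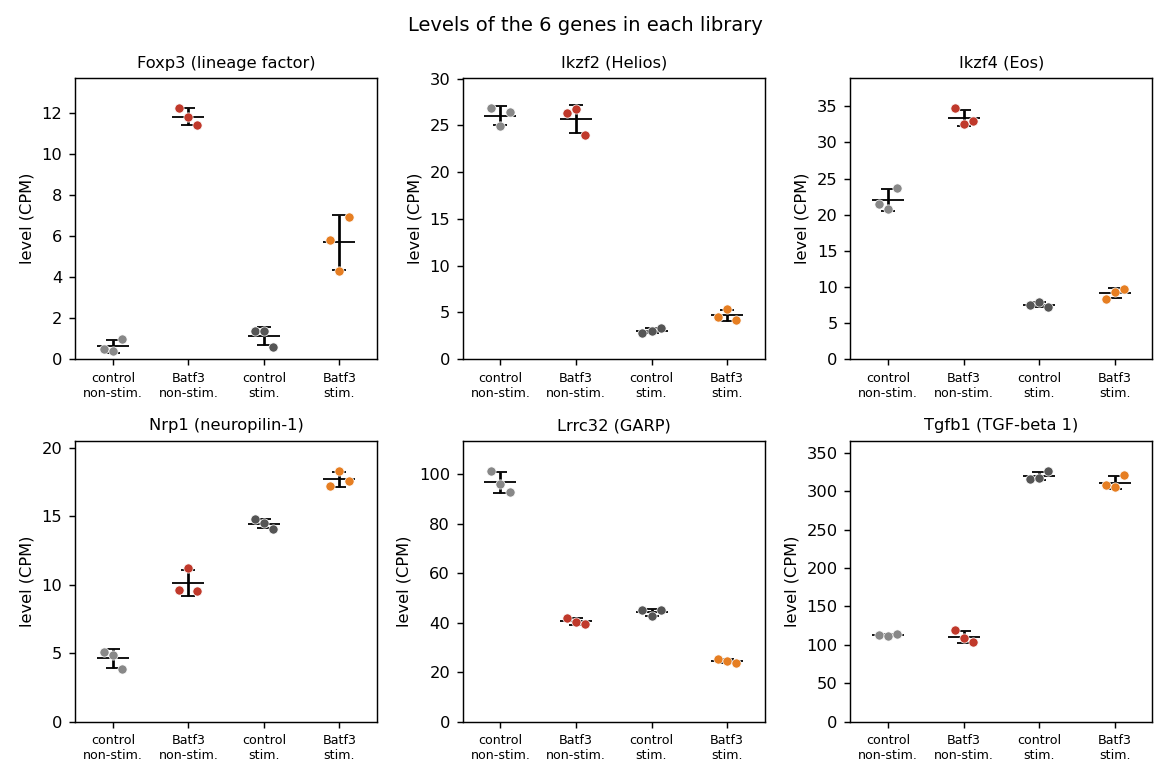
CPM of the 6 genes in the 12 libraries, 1 panel per gene with its own linear axis from 0. Points are libraries, horizontal bars are group means and error bars are SDs (n = 3). Foxp3 is highest in Batf3 non-stimulated cells (11.4 to 12.2 CPM), Lrrc32 is lower in Batf3 than in control cells in both cultures, and Tgfb1 separates by culture and not by vector.

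Helios and Eos differed from Foxp3 and from each other. Ikzf2 (ENSMUSG00000025997, chromosome 1, 69531214 to 69687245, minus strand) was at 26.8, 24.9 and 26.4 CPM in control and 26.3, 26.7 and 24.0 CPM in Batf3 non-stimulated libraries. The ranges overlapped and the log2 change was -0.02 ± 0.07 (adjusted p = 0.862). In stimulated libraries Ikzf2 was at 2.82, 3.05 and 3.27 CPM in control and 4.54, 5.34 and 4.20 CPM in Batf3 cells. Here every Batf3 library was above every control library, with a rise of 0.62 ± 0.17 (adjusted p = 0.00269). Stimulation lowered Ikzf2 in control cells by -3.09 ± 0.14 (adjusted p = 1.57e-33) and in Batf3 cells by -2.45 ± 0.12 (adjusted p = 1.39e-30), so the Batf3 difference stood on a level far under that of the non-stimulated cells. The vector effects in the cultures differed by 0.64 ± 0.19 (adjusted p = 0.00677), a call lost without Batf3 stimulated replicate 2 (0.50, adjusted p = 0.0746).

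Ikzf4 (ENSMUSG00000002578, chromosome 10, 128630843 to 128645991, minus strand) was at 21.5, 20.8 and 23.7 CPM in control and 34.7, 32.5 and 33.0 CPM in Batf3 non-stimulated libraries. The groups did not overlap, and Ikzf4 rose by 0.60 ± 0.07 (adjusted p = 1.86e-10), a far smaller log2 change than that of Foxp3. In stimulated libraries it was at 7.54, 7.93 and 7.16 CPM in control and 8.33, 9.35 and 9.74 CPM in Batf3 cells. These groups did not overlap either, but the change of 0.28 ± 0.12 missed the threshold (adjusted p = 0.0661), and it passed without Batf3 stimulated replicate 1 (0.33, adjusted p = 0.0441) or with library sizes alone as scaling (0.32, adjusted p = 0.03). Stimulation lowered Ikzf4 by -1.54 ± 0.10 in control (adjusted p = 2.27e-22) and -1.87 ± 0.09 in Batf3 cells (adjusted p = 5.62e-29). The difference between the vector effects in the 2 cultures missed the threshold (-0.32 ± 0.14, adjusted p = 0.0883).

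The surface receptor Nrp1 (ENSMUSG00000025810, chromosome 8, 128358604 to 128503363, plus strand) rose with the vector. Its non-stimulated libraries were at 5.12, 4.91 and 3.84 CPM in control and 9.63, 11.2 and 9.55 CPM in Batf3 cells. Its stimulated libraries were at 14.8, 14.5 and 14.1 CPM in control and 17.2, 18.3 and 17.6 CPM in Batf3 cells. The vector groups did not overlap in either culture, and the rises were 1.13 ± 0.13 (adjusted p = 2.34e-11) and 0.29 ± 0.10 (adjusted p = 0.0153). The second rise was no longer called without control stimulated replicate 3 (0.26, adjusted p = 0.0719), without Batf3 stimulated replicate 2 (0.26, adjusted p = 0.0715), with no filter on low counts (0.26, adjusted p = 0.0526) and with DESeq2 (0.28, adjusted p = 0.109). Unlike Foxp3 in Batf3 cells, Nrp1 rose with stimulation for both vectors, by 1.65 ± 0.13 in control (adjusted p = 2.78e-19) and 0.81 ± 0.10 in Batf3 cells (adjusted p = 6.58e-11). The vector effect was smaller in stimulated cells (-0.84 ± 0.16, adjusted p = 3.57e-05), as it was for Foxp3.

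Lrrc32, which encodes the TGF-beta carrier GARP, went the other way (ENSMUSG00000090958, chromosome 7, 98489283 to 98502181, plus strand). In non-stimulated libraries it was at 101.2, 96.0 and 92.9 CPM in control and 42.1, 40.2 and 39.3 CPM in Batf3 cells. In stimulated libraries it was at 45.0, 42.6 and 45.2 CPM in control and 25.5, 24.6 and 23.9 CPM in Batf3 cells. Every Batf3 library was under every control library of its culture, and Lrrc32 fell by 1.25 ± 0.05 (adjusted p = 1.74e-30) and by 0.84 ± 0.06 (adjusted p = 1.00e-17). Stimulation lowered it too, by -1.13 ± 0.05 in control (adjusted p = 1.09e-29) and -0.71 ± 0.06 in Batf3 cells (adjusted p = 2.49e-16). The vector effect was less negative in stimulated cells, by 0.41 ± 0.08 (adjusted p = 6.11e-05).

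Tgfb1, the ligand that GARP carries (ENSMUSG00000002603, chromosome 7, 25687002 to 25705077, plus strand), followed the culture. Non-stimulated libraries were at 113.4, 112.0 and 114.0 CPM in control and 119.1, 109.3 and 103.9 CPM in Batf3 cells, and stimulated libraries at 316.2, 316.8 and 326.1 and at 307.5, 305.7 and 320.5 CPM. The vector groups overlapped in both cultures, with log2 changes of -0.03 ± 0.04 (adjusted p = 0.573) and -0.04 ± 0.03 (adjusted p = 0.413). Every stimulated library was above every non-stimulated one, by 1.50 ± 0.04 in control (adjusted p = 1.81e-44) and 1.49 ± 0.04 in Batf3 cells (adjusted p = 2.12e-44), and the vector effects differed by -0.01 ± 0.05 (adjusted p = 0.935).

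Counted together, 3 of the 6 genes rose with Batf3 in non-stimulated cells (Foxp3, Ikzf4 and Nrp1), where 16.3% of all tested genes did, and 1 fell (Lrrc32), where 23.0% did. In stimulated cells 3 rose (Foxp3, Ikzf2 and Nrp1) against 14.8% of all tested genes, and 1 fell (Lrrc32) against 14.6%. Of all calls for the vector, 41.5% were rises in non-stimulated and 50.3% in stimulated cells, and with library sizes alone 60.1% and 65.6%. The median log2 changes of the 6 were 0.29 and 0.28, beside -0.02 and 0.00 for all tested genes. The 6 were chosen with earlier results known, and Foxp3 is part of each count and median of the 6 here. In non-stimulated cells the others were at 1.13 (Nrp1), 0.60 (Ikzf4), -0.02 (Ikzf2), -0.03 (Tgfb1) and -1.25 (Lrrc32). In stimulated cells they were at 0.62 (Ikzf2), 0.29 (Nrp1), 0.28 (Ikzf4), -0.04 (Tgfb1) and -0.84 (Lrrc32). Foxp3 and Nrp1 rose and Lrrc32 fell in both cultures. The remaining 3 had at most 1 call for the vector. With stimulation 3 rose and 3 fell in control cells, where 39.6% and 40.7% of all genes did, and 2 rose and 4 fell in Batf3 cells, where 41.2% and 41.4% did. Stimulation contrasts share libraries with the vector contrasts. The interaction called 2 of the 6 as higher (Ikzf2 and Lrrc32) against 14.6% of all genes, and 2 as lower (Foxp3 and Nrp1) against 6.08%, with a median of -0.17 beside 0.05 for all genes.

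**Figure D2:**
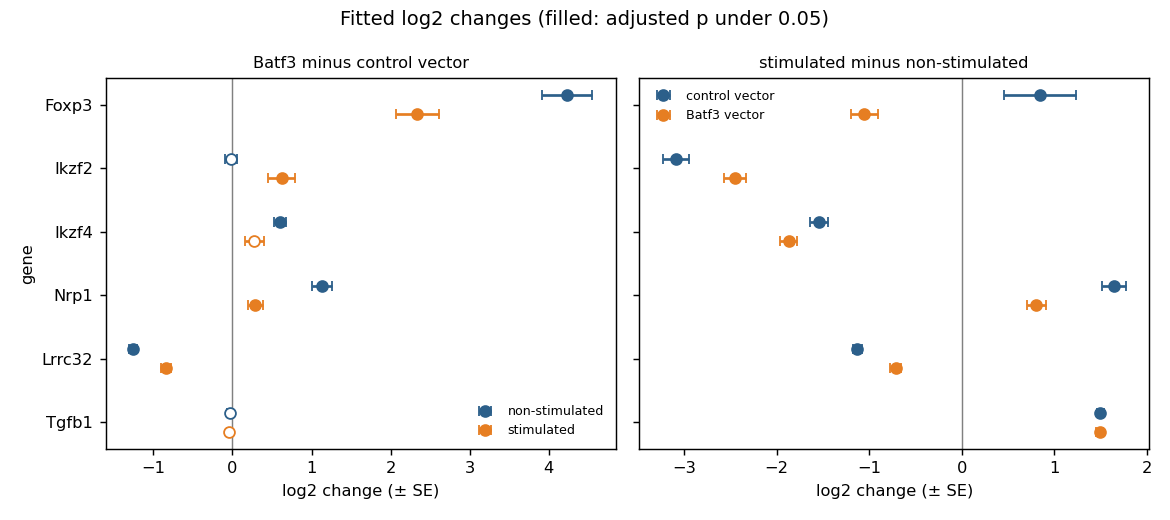
Log2 changes of the 6 genes in the vector comparisons (Batf3 minus control) and the stimulation comparisons, with SE as error bars and filled points for an adjusted p under 0.05. The rise of Foxp3 in non-stimulated cells (4.23) stands far beyond the changes of the other genes with the vector, and Lrrc32 is the 1 gene under 0 and called for the vector in both cultures.

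Levels of different genes were compared per kilobase of merged exon (CPM per kb). In control non-stimulated cells the order was Tgfb1 (22.4 ± 0.202), Lrrc32 (20.6 ± 0.892), Ikzf4 (3.67 ± 0.246), Ikzf2 (2.24 ± 0.0844), Nrp1 (0.472 ± 0.0697) and Foxp3 (0.135 ± 0.0713). Batf3 non-stimulated cells had Foxp3 at 2.58 ± 0.0838, between Ikzf4 (5.57 ± 0.191) and Ikzf2 (2.21 ± 0.123), and Nrp1 was last (1.04 ± 0.0961). Foxp3 thus went from the lowest of the 6 to a level above Ikzf2, while Tgfb1 (22.0 ± 1.53) and Lrrc32 (8.64 ± 0.303) stayed first in order. In control stimulated cells Tgfb1 was at 63.4 ± 1.10, Lrrc32 at 9.44 ± 0.305, Nrp1 at 1.48 ± 0.0388 and Ikzf4 at 1.26 ± 0.0640, and the last pair, Ikzf2 (0.262 ± 0.0197) and Foxp3 (0.244 ± 0.0961), did not differ beyond their spread. In Batf3 stimulated cells Tgfb1 was at 61.7 ± 1.60, Lrrc32 at 5.26 ± 0.173 and Nrp1 at 1.81 ± 0.0587. Ikzf4 (1.52 ± 0.121) and Foxp3 (1.24 ± 0.288) overlapped there, and Ikzf2 was lowest (0.404 ± 0.0503).

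The receptors of regulatory T cells moved in both directions, with more rises than falls. Of 15 tested receptors, 7 rose and 2 fell in non-stimulated cells, beside 16.3% and 23.0% of all tested genes. In stimulated cells 9 rose and 3 fell, beside 14.8% and 14.6%. The median log2 changes of the receptors were 0.34 and 0.38. The largest rises were of the inhibitory receptor Ctla4, from 90.0 ± 3.10 to 166.1 ± 4.93 CPM without stimulation (0.88 ± 0.04) and from 8.35 ± 0.0471 to 251.9 ± 5.84 CPM with it (4.91 ± 0.08), and of the chemokine receptor Ccr8 (1.76 ± 0.45 and 2.15 ± 0.26), which stayed at 5.91 ± 0.814 CPM or less. The costimulatory receptor Icos (0.79 ± 0.04 and 2.04 ± 0.06) and the inhibitory receptor Tigit (0.84 ± 0.07 and 1.36 ± 0.05), chosen after their values were seen, rose in both cultures as well. Cd83 fell in both (-0.49 ± 0.12 and -0.48 ± 0.05). Tnfrsf9 (4-1BB) fell in non-stimulated cells (-0.23 ± 0.03), and the inhibitory receptor Lag3 in stimulated cells (-0.46 ± 0.03).

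Il2ra, the IL-2 receptor alpha chain that is used to identify regulatory T cells, rose in non-stimulated cells from 350.6 ± 12.1 to 443.5 ± 9.63 CPM (0.34 ± 0.03, adjusted p = 2.09e-17). In stimulated cells it was at 1518 ± 10.2 CPM in control and 1454 ± 18.2 in Batf3 cells, a fall of -0.06 ± 0.02 (adjusted p = 0.0408). That call was lost without control stimulated replicate 1 or 2 or Batf3 stimulated replicate 1 or 3 (adjusted p from 0.0501 to 0.086). It was also lost with a replicate block (adjusted p = 0.0508) and with library sizes alone (-0.02, adjusted p = 0.664). The TNF receptor family member GITR (Tnfrsf18) did not pass in either culture (0.11 ± 0.05, adjusted p = 0.0883, and -0.01 ± 0.04, adjusted p = 0.861). In non-stimulated cells the GITR change passed with library sizes alone (0.19, adjusted p = 0.0037) and with the 2 non-stimulated groups fitted alone (0.14, adjusted p = 0.038). It also passed without Batf3 non-stimulated replicate 2 or any 1 of 5 stimulated libraries (adjusted p from 0.019 to 0.0388).

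Suppressive enzymes and secreted factors were divided. Of 9 tested, 3 rose and 2 fell in non-stimulated cells (median 0.13), beside 16.3% and 23.0% of all tested genes. In stimulated cells 3 rose and 3 fell (median -0.01, or 0.03 with library sizes alone), beside 14.8% and 14.6%. Nt5e (CD73), which makes adenosine from AMP, rose in both (0.32 ± 0.04 and 1.09 ± 0.06), and so did Fgl2, a secreted fibrinogen-like protein (0.11 ± 0.03 and 1.01 ± 0.12). Ecm1 rose without stimulation (0.63 ± 0.13). Ebi3, a subunit of IL-27 and IL-35, fell in both (-1.09 ± 0.26 and -1.06 ± 0.18), and the cytotoxic protease Gzmb fell in non-stimulated cells (-0.63 ± 0.02) and rose in stimulated cells (0.30 ± 0.02). Il10, the cytokine most tied to suppression, was at 0.133 CPM in control and 0.192 in Batf3 non-stimulated cells, about 3 counts in a library or fewer, and its change was not called (adjusted p = 0.618). In stimulated cells it fell from 51.3 to 17.1 CPM (-1.58 ± 0.08, adjusted p = 2.82e-26), the opposite direction to Foxp3. Penk, chosen after its values were seen, fell there too (-0.96 ± 0.14). Entpd1 (CD39), which acts before CD73, did not pass in either culture (0.13 ± 0.06, adjusted p = 0.101, and 0.38 ± 0.18, adjusted p = 0.0951). In non-stimulated cells the CD39 change passed with library sizes alone (0.21, adjusted p = 0.0078) and with the 2 non-stimulated groups fitted alone (0.16, adjusted p = 0.0184). It also passed without control non-stimulated replicate 3 or any 1 of 5 stimulated libraries (adjusted p from 0.0352 to 0.0474). In stimulated cells it passed without Batf3 stimulated replicate 1 (0.51, adjusted p = 0.0302).

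Among 34 tested partners of FOXP3 and other transcription factors of regulatory T cells, 12 rose and 4 fell in non-stimulated cells (median 0.03). The shares of all tested genes were 16.3% and 23.0%. In stimulated cells 20 rose and 3 fell (median 0.20), beside 14.8% and 14.6%. With library sizes alone, 17 of the 34 rose and 2 fell without stimulation (median 0.11), and 22 rose and 2 fell with it. Runx1, whose protein binds FOXP3 and the Foxp3 gene, rose from 2.79 ± 0.400 to 9.02 ± 1.19 CPM (1.69 ± 0.16) and from 9.14 ± 0.426 to 22.4 ± 1.01 CPM (1.29 ± 0.11). Maf, a driver of Il10 in several T cell types, rose by 1.35 ± 0.06 and 1.74 ± 0.10, and Prdm1 (BLIMP-1) rose by 1.79 ± 0.15 in stimulated cells. Gata3, chosen after its values were seen, rose by 0.71 ± 0.06 and 0.98 ± 0.07. Falls were smaller. Nr4a3 (-0.41 ± 0.08) and Stat5a (-0.21 ± 0.04) fell in non-stimulated cells, beside Irf4 and Foxp4 (the second chosen after its value was seen), whose calls were lost when the 2 non-stimulated groups were fitted alone (adjusted p = 0.0789 and 0.191). Irf4 (-0.51 ± 0.02) and Foxp1 (-0.23 ± 0.03) fell in stimulated cells, beside Foxo3 (-0.20 ± 0.07, chosen after its value was seen), whose call was lost without control replicate 1 or 3 or Batf3 replicate 3 of the stimulated cells (adjusted p from 0.0933 to 0.186).

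Genes that FOXP3 lowers in regulatory T cells did not fall together. Of 10 tested, 2 rose and 2 fell in non-stimulated cells (median 0.01), or 4 and 2 with library sizes alone. The first split was close to that of all tested genes, of which 16.3% rose and 23.0% fell. In stimulated cells 5 rose and 3 fell (median 0.13), beside 14.8% and 14.6% of all tested genes. The IL-7 receptor gene Il7r rose from 36.5 ± 1.83 to 133.6 ± 5.71 CPM (1.87 ± 0.07) and from 4.57 ± 1.65 to 17.8 ± 2.31 CPM (1.96 ± 0.16), and Igfbp4 rose by 1.45 ± 0.07 and 1.70 ± 0.20. Low Il7r is a known mark of regulatory T cells, and here Il7r and Foxp3 both rose. In non-stimulated cells Tcf7, the gene for TCF-1, fell (-0.20 ± 0.03), as did Dapl1 (-1.33 ± 0.41), whose call was lost without control replicate 2 or Batf3 replicate 1 of those cells (adjusted p = 0.0582 and 0.0575). In stimulated cells Tcf7 (-0.77 ± 0.05), Il2 (-0.22 ± 0.02) and Ifng (-0.15 ± 0.02) fell, and Pde3b (0.22 ± 0.05), Satb1 (0.23 ± 0.05) and Zap70 (0.19 ± 0.03) rose. Ifng, Pde3b, Satb1 and Zap70 were chosen after their values were seen.

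**Figure D3:**
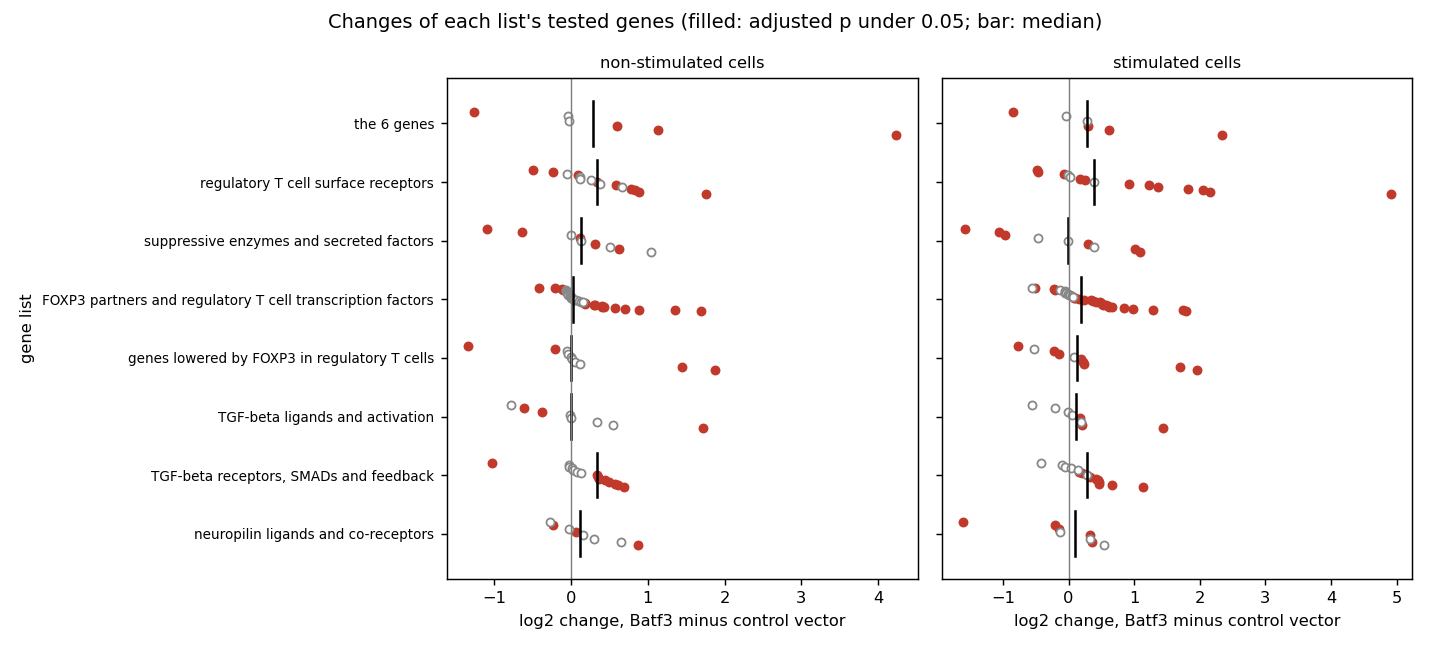
Log2 change with the Batf3 vector of each tested gene in the 6 genes and in the lists of regulatory T cell and TGF-beta genes, in non-stimulated and stimulated cells. Points are genes, filled for an adjusted p under 0.05, and black bars are list medians. Every list has points on both sides of 0, and the medians lie between -0.01 and 0.38.

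The TGF-beta ligands and the proteins that hold or release them had calls in both directions in non-stimulated cells. Of 8 tested, 1 rose and 2 fell in non-stimulated cells (median 0.00, or 0.07 with library sizes alone), and 3 rose and none fell in stimulated cells (median 0.11). Over all tested genes, the shares that rose were 16.3% without and 14.8% with stimulation, and those that fell were 23.0% and 14.6%. Tgfb3 (-0.61 ± 0.12) and Nrros (-0.38 ± 0.04), which carries latent TGF-beta as GARP does, fell in non-stimulated cells. Furin, the protease that cuts the TGF-beta precursor (0.20 ± 0.03), Itgav, an integrin chain that helps release the ligand (0.18 ± 0.04, chosen after its value was seen), and Tgfb2 (1.44 ± 0.27, to 3.93 ± 0.338 CPM) rose in stimulated cells. Tgfb2 was also called in non-stimulated cells, at 0.384 ± 0.170 CPM or less, but that call was lost without any 1 of the 3 control libraries (adjusted p from 0.0607 to 0.12) or without Batf3 replicate 3 (adjusted p = 0.2).

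Most calls among TGF-beta receptors, SMADs and feedback genes were rises. Of 15 tested, 8 rose and 1 fell in non-stimulated cells (median 0.35), and 9 rose and none fell in stimulated cells (median 0.28), against the same shares of all tested genes. The co-receptor gene Tgfbr3 rose by 0.69 ± 0.11 and 1.13 ± 0.14, the SMAD repressor gene Ski by 0.62 ± 0.04 in non-stimulated cells, and Smad3, a carrier of the signal to the nucleus, by 0.67 ± 0.04 in stimulated cells. Smad7, a feedback inhibitor, rose in non-stimulated cells (0.49 ± 0.05) and was at 0.04 ± 0.05 in stimulated cells (chosen after its values were seen). Eng, an accessory receptor, fell in non-stimulated cells (-1.02 ± 0.11).

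Around Nrp1, 8 genes were tested from a list of semaphorins, semaphorin receptors, VEGF and its receptor. They gave 2 rises and 1 fall in non-stimulated cells (median 0.12), beside 16.3% and 23.0% of all tested genes. In stimulated cells they gave 2 rises and 3 falls (median 0.10), beside 14.8% and 14.6%. In non-stimulated cells the related receptor Nrp2 (0.87 ± 0.32) and the semaphorin Sema4d (0.07 ± 0.03) rose and the ligand Vegfa (-0.24 ± 0.09) fell. Each of these 3 calls was lost in at least 1 fit that left out a library: Nrp2 without control replicate 1 or Batf3 replicate 3 (adjusted p = 0.0807 and 0.115), Sema4d without 4 of the 6 libraries compared (adjusted p from 0.0531 to 0.164), and Vegfa without 3 of them (adjusted p from 0.0853 to 0.19). In stimulated cells Sema4d (0.35 ± 0.03) and the co-receptor Plxna1 (0.32 ± 0.10) rose, and Plxna3 (-1.61 ± 0.39), Vegfa (-0.20 ± 0.05) and Plxnd1 (-0.15 ± 0.04, chosen after its value was seen) fell.

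Markers of other cells were read beside these results, since regulatory T cells are mostly CD4 cells. Cd4 had 0 to 9 counts per library, with means of 0.221 ± 0.192 and 0.149 ± 0.0742 CPM in control and Batf3 non-stimulated cells and 0.305 ± 0.202 and 0.321 ± 0.300 CPM in control and Batf3 stimulated cells. It was too low to be tested, while Foxp3 in the same Batf3 non-stimulated libraries had 178 to 191 counts. The other 2 CD4 lineage genes rose in non-stimulated cells and 1 of them in stimulated cells, beside 16.3% and 14.8% of all tested genes. Zbtb7b (ThPOK), the factor of CD4 lineage choice, rose by 0.71 ± 0.09 in non-stimulated cells and was at 0.04 ± 0.12 in stimulated cells (adjusted p = 0.848). The ligand gene Cd40lg rose by 1.45 ± 0.41, to 1.05 ± 0.0387 CPM, and by 1.74 ± 0.07, to 56.6 ± 0.846 CPM in stimulated cells. The summed CPM of the 3 CD4 markers thus lay at 13.1 to 15.8 in control and 23.1 to 25.0 in Batf3 non-stimulated libraries, and at 24.5 to 27.0 and 64.8 to 67.7 in stimulated libraries, where most of the Batf3 sum was Cd40lg. Cd8a fell with the vector in non-stimulated cells (-0.20 ± 0.03) and rose in stimulated cells (0.17 ± 0.03). Cd8b1 rose in both cultures (0.21 ± 0.03 in each). In non-stimulated cells 1 of the 8 CD3, CD8 and other T cell surface genes rose and 4 fell. The shares of all tested genes were 16.3% and 23.0%. With library sizes alone that split of the 8 became 3 rises and 1 fall. In stimulated cells 7 of the 8 rose and 1 fell, beside 14.8% and 14.6% of all tested genes.

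Of the 8 markers of conventional dendritic cells, 5 were tested. Without stimulation 2 rose and none fell, beside 16.3% and 23.0% of all tested genes. With stimulation 3 markers rose and 1 fell, beside 14.8% and 14.6%. The summed CPM of the 8 markers was 30.8 to 31.8 in control and 37.2 to 39.7 in Batf3 non-stimulated libraries. In stimulated libraries it was 37.2 to 43.4 and 63.3 to 67.8, with Cd209a at 0 throughout. Itgax, which activated T cells also express, rose most (0.91 ± 0.10 and 1.31 ± 0.07). Xcr1 rose by 0.28 ± 0.11 and 0.69 ± 0.15, and its call in non-stimulated cells was lost without any 1 of the 3 control libraries or Batf3 replicate 2 or 3 (adjusted p from 0.0553 to 0.179). Zbtb46, a dendritic cell transcription factor, fell in stimulated cells (-0.54 ± 0.11, adjusted p = 3.12e-05). Of the 3 tested B cell markers, Cd79b rose in non-stimulated cells (0.58 ± 0.24), a call lost without control replicate 2 or 3 or Batf3 replicate 1 or 3 (adjusted p from 0.0619 to 0.24). Their sum was 4.24 to 5.70 in control and 4.87 to 7.31 CPM in Batf3 non-stimulated libraries, and 2.44 to 2.74 and 3.32 to 3.56 CPM in stimulated libraries, with Ms4a1 at 0. Macrophage markers summed to 6.63 to 7.95, 9.24 to 10.3, 6.71 to 7.23 and 7.67 to 8.83 CPM in the same order of groups, with Lyz2 at 0. Platelet markers stayed at 4.34 CPM or less with Pf4, Ppbp and Gp1bb at 0, and plasmacytoid dendritic cell markers at 1.04 CPM or less with Siglech at 0. Endothelial markers, mainly Pecam1, summed to 54.4 to 58.3 in control and 51.5 to 52.9 CPM in Batf3 non-stimulated libraries, and to 5.87 to 7.39 and 6.20 to 7.51 CPM in stimulated libraries. All 3 tested NK cell markers fell in non-stimulated cells, beside 23.0% of all tested genes, among them Eomes (-1.12 ± 0.03) and Klrb1c (-1.93 ± 0.32). In stimulated cells Eomes alone was called (-0.19 ± 0.05), where 14.6% of all tested genes fell, and Klrb1c was at 0.23 ± 0.41. The NK markers summed to 692.3 to 703.5 in control and 473.9 to 478.6 CPM in Batf3 non-stimulated libraries, and to 924.2 to 931.8 and 885.0 to 951.4 CPM in stimulated libraries, with Ncr1 at 0. Markers of gamma delta T cells summed to 126.4 to 133.7 CPM in control and 148.9 to 157.0 in Batf3 non-stimulated libraries. Tcrg-C1 rose there by 0.77 ± 0.06, while Trdc (-0.08 ± 0.04) and Sox13 (-0.84 ± 0.37) were not called. In stimulated libraries the gamma delta markers summed to 28.4 to 31.1 and 24.6 to 25.4 CPM. Tcrg-C1 rose there (1.05 ± 0.27), Trdc fell (-0.37 ± 0.07) and Sox13 was not called (0.64 ± 0.51). The part of these cells in the Foxp3 change was not tested.

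Across the 12 libraries, the genes whose log2(CPM + 1) ran most like that of Foxp3 were Ski (Pearson r = 0.966), Zfc3h1 (0.961), Batf3 (0.952), Trib2 (0.950) and Klf4 (0.948), out of 10012 genes with at least 5 CPM in 1 group. Batf3 itself, measured with the vector, thus had rank 3. Of the 5, 4 were also among the 5 most alike by Spearman's rho, and Klf4 was the exception (rank 9). The other 5 genes had an r of 0.410 or less. Nrp1 (r = 0.410) ranked 750 by Pearson's r and 1759 by Spearman's rho, Ikzf4 (0.380) 859 and 371, and Ikzf2 (0.169) 2750 and 3959. Tgfb1 (-0.136) ranked 6065 and 5375, and Lrrc32 (-0.667) 9713 and 9913. These values are a description over 4 groups of 3 libraries that share vector and culture, and carry no test.

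Ski was at 86.3 ± 1.44, 132.4 ± 3.52, 92.2 ± 1.95 and 127.0 ± 3.74 CPM in control non-stimulated, Batf3 non-stimulated, control stimulated and Batf3 stimulated cells. Trib2, which encodes a pseudokinase, was at 23.2 ± 1.37, 59.6 ± 2.33, 23.7 ± 1.88 and 34.8 ± 2.25 CPM in the same order, and Klf4, a zinc finger factor, at 6.24 ± 0.669, 9.09 ± 0.677, 6.40 ± 0.499 and 8.40 ± 0.916 CPM. All 3 were higher in both Batf3 groups than in both control groups and highest in Batf3 non-stimulated cells, which is also the order of Foxp3.

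**Figure D4:**
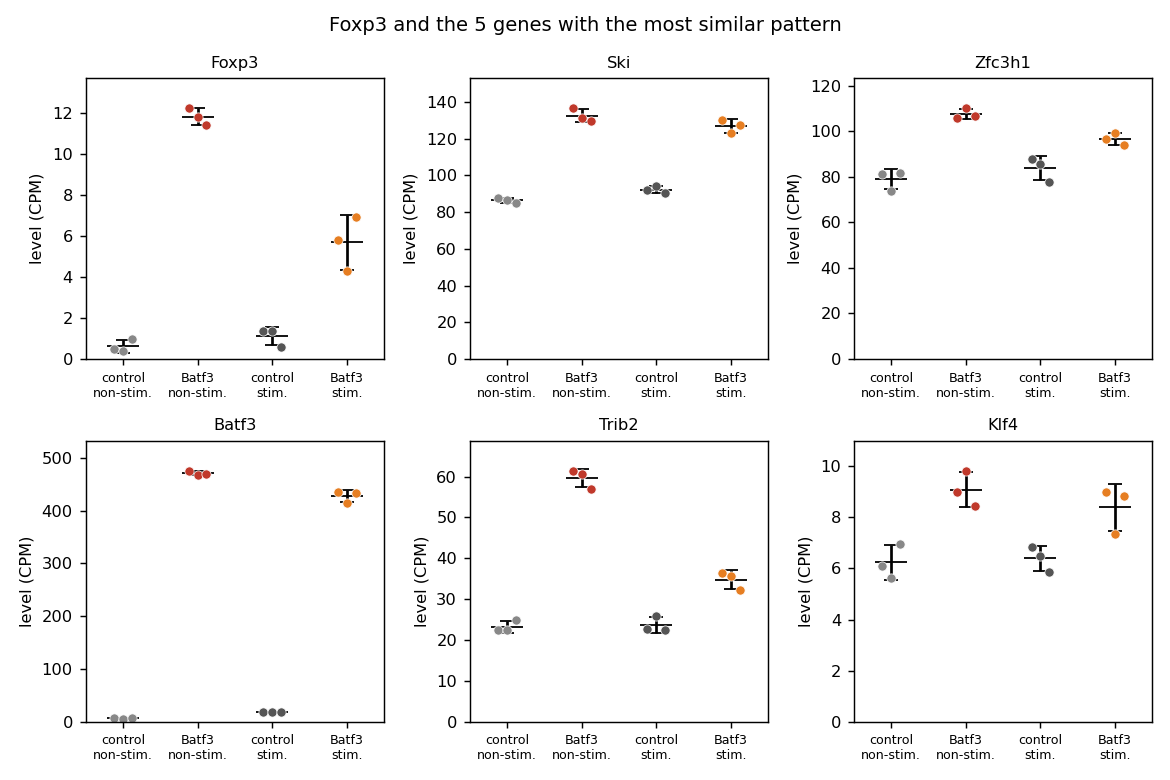
CPM of Foxp3 and of the 5 genes most like it in the 12 libraries, on linear axes from 0. Points are libraries, horizontal bars are group means and error bars are SDs (n = 3). In each panel the Batf3 groups have the higher means, and the Batf3 non-stimulated mean is the highest.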

How the data were processed

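RNA was measured in 12 libraries of CD8 T cells, 3 per combination of vector and culture. The authors deposited raw read counts for each gene, made with STAR 2.7 and featureCounts on GRCm38, per the submitters' processing notes. The sources used here do not give the annotation release, the strand setting or the treatment of multi-mapping reads. The library kit was stranded, per the labels' protocols. Of 55335 gene identifiers, 55154 matched GENCODE M21 (GRCm38), which gave positions and exon lengths.

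The test was edgeR 4.0.16 in R 4.3.3 (filterByExpr, TMM factors, robust quasi-likelihood fit of 4 group means, 8 residual degrees of freedom). Tests were two-sided, with Benjamini-Hochberg adjustment over 15702 genes, and the threshold for a call was an adjusted p of 0.05. SEs come from the information matrix with the moderated quasi-dispersion and are never below the counting error. CPM used TMM-scaled library sizes without a pseudocount. The method was checked on simulated data. Total counts lay between 14211564 and 14468231. Replicate pairs differed by more than sampling noise.

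The 6 genes and the lists were chosen with earlier results of these data known. From each list, up to 2 called genes with the largest rise and fall in each vector comparison were named, at 1 CPM or more in the higher group. Ctla4, Il2ra, Tnfrsf18, Il10, Runx1 and Entpd1 were always named, with checks (Batf3, Cd4, Cd8a and neighbours of Foxp3). Likeness used Pearson's r of log2(CPM + 1), leaving out predicted models, clone names and receptor segments. Some genes sit in more than 1 list, and 1 gene withheld for evaluation was left out of the lists and is not reported here. Alternatives were other scalings and filters, DESeq2 1.42.0, fits of the 2 groups compared, a replicate block and leaving out each library. Adding Flicr counts to Foxp3 was chosen after the data were seen.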

Additional observations from a re-analysis of the deposited data

Results flagged for a closer look

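The effect of the Batf3 vector differed between the cultures, by the interaction test (effect in stimulated minus effect in non-stimulated cells, log2, edgeR, Benjamini-Hochberg adjustment over all tested genes), for 4 of the 6 genes: Foxp3 (-1.90), Nrp1 (-0.84), Ikzf2 (0.64) and Lrrc32 (0.41). Of these, Ikzf2 was lost without Batf3 stimulated replicate 2. The Batf3 transcript itself differed by -1.58. For the other named genes, which include those below, 1331 of 1376 alternative values of this difference kept their call and 42 lost it. The other 3 became called.

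Among receptors and suppressive factors, the difference was positive for Ctla4 (4.03), Icos (1.26), Tigit (0.52), Tnfrsf9 (0.25), Gzmb (0.93), Fgl2 (0.90) and Nt5e (0.77), and negative for Il10 (-2.09), Ecm1 (-0.64), Lag3 (-0.41) and Il2ra (-0.40). The Il10 value (SE 0.76, adjusted p = 0.0343) rests on a vector effect of 0.51 ± 0.76 in non-stimulated cells, near the detection floor. In some alternative fit at least 1 of the calls for Il10 and Ecm1 was lost. Among transcription factors it was positive for Prdm1 (0.91), Maf (0.39), Nr4a3 (0.35), Gata3 (0.27) and Stat5a (0.16), and negative for Tcf7 (-0.57), Irf4 (-0.40) and Foxp1 (-0.23). Among other genes tied to FOXP3 it was positive for Pde3b (0.26), Zap70 (0.23) and Satb1 (0.22), and negative for Ifng (-0.27).

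In the TGF-beta and neuropilin lists it was positive for Nrros (0.42), Sema4d (0.28), Furin (0.20) and Itgav (0.18), and negative for Plxna3 (-1.91), Smad7 (-0.45) and Ski (-0.15). Among cell type markers it was positive for Klrb1c (2.16), Cd2 (1.31), Eomes (0.93), Itgax (0.40), Cd8a (0.36) and Cd3g (0.33), and negative for Zbtb7b (-0.67) and Trdc (-0.29). The calls for Plxna3 (SE 0.55, adjusted p = 0.00513) and Itgax (SE 0.12, adjusted p = 0.0119) were each lost in at least 1 alternative fit. Of the genes most like Foxp3, Trib2 (-0.81) and Zfc3h1 (-0.24) also had a negative difference.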

How the results depend on the processing

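For the 6 genes no alternative reversed a direction that was called. All 115 alternative values in non-stimulated cells kept their call, as did 109 of 115 in stimulated cells, and the exceptions stand in the report beside Ikzf4 and Nrp1. With library sizes alone in place of TMM, the median of all genes shifted by -0.19 and -0.21 in the stimulation comparisons. Under that scaling 2397 genes fell with Batf3 in non-stimulated cells in place of 3615. The direction of Thy1 for the vector in non-stimulated cells also turned (0.0039), as did, with stimulation of control cells, those of Ski (-0.0921), Thy1 (-0.0680), Zfc3h1 (-0.10) and Trib2 (-0.16), and that of Thy1 in Batf3 cells (-0.11). With no filter on low counts, 1524 genes had a higher vector effect in stimulated cells in place of 2296. Leaving out 1 library gave 1 to 2 of the 6 genes a higher vector effect there. The control stimulation change of Foxp3 was not called with library sizes alone (0.66), no filter (0.84) or DESeq2 (0.86). Replicate numbers did not pair the libraries (same-number correlations of deviations from -0.048 to 0.033, and 3 of 12 libraries closest to their own number). With the replicate block 6059 in place of 6175 genes were called for the vector in non-stimulated and 4510 in place of 4631 in stimulated cells.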
